A study of Mus musculus with 10 samples.

Results

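This section concerns 55 mouse genes that encode homeobox transcription factors outside the Hox clusters or Pax factors, out of 21887 protein-coding genes on the same assembly. The members were taken by symbol: 8 Pax genes, 10 LIM genes (8 Lhx genes, Isl1 and Isl2), Six2, Six3 and Six6, 6 Nkx genes, 6 Dlx genes, 6 Irx genes, 2 Msx genes, 4 Otx and Pitx genes, and 10 Gbx, Emx, En, Vax and Barhl genes. The rule uses no methylation value. DNA methylation was measured in testis by reduced representation bisulfite sequencing, in which a restriction enzyme enriches CpG-rich fragments and unmethylated cytosines are read as thymines. The arsenic group held 5 libraries and the control group 5 libraries, each of testis DNA of F2 mice. The labels name the generation, the tissue and whether the group was arsenic or control. They do not name the strain, the age, the dose, or which ancestor was exposed. Nothing in them ties each library to its own animal, so a p-value here measures variation among libraries that could be technical.

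Homeobox proteins bind DNA through a helix-turn-helix domain, the homeodomain, and Pax proteins through the paired domain, which some of them carry beside a homeodomain. They set the identity of regions and cell types in the embryo, and most are silent in adult tissues outside the organs they pattern. Their genes are known for broad CpG-rich stretches that are free of DNA methylation in many cell types and are bound there by Polycomb complexes while silent. In the male germ line, Polycomb marks at such genes persist through spermatogenesis. Polycomb marks and transcription were not measured here.

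For each gene and library, methylated and all reads were summed over the cytosines of CpGs within 1 kb of either gene end, inside or outside the gene (the ends), and separately over those further inside (the body). A methylation level is the methylated share of these reads in percent. Because the DNA of all cells in the tissue was pooled, fewer methylated cells and less methylation per cell cannot be told apart. A gene counted as measured with at least 3 distinct CpGs. Ends were measured in 50 members and bodies in 53. Pax5, Lhx4 and Otx2 had 0 covered CpGs in their ends and Pax8 and Isl2 had 2 each, while Dlx5 and Gbx2 had 0 in their bodies. The median member had 44.5 covered CpGs in its ends and 49 in its body, against 23 and 23 over all measured genes, so the members were among the better sampled genes. Reads over a measured member numbered 133 to 9521 per library in ends and 55 to 21911 in bodies.

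Over the whole table, 1988759 cytosines on 1407384 CpGs had at least 10 reads in every library. Median coverage was 35 to 40 reads in the arsenic libraries and 27 to 36 in the control libraries. Control libraries 4 and 5 stood apart: 16.9% and 18.8% of their cytosines were methylated in every read, a share that ran from 11.1% to 14.9% elsewhere. Such a share also depends on coverage, and their median coverages of 27 and 29 reads were among the lowest. Control 2, also at 29 reads, had a share of 13.5%. The cause of the higher shares in control libraries 4 and 5 was not tested. Markers of the tissue were read within 500 bp of their gene starts. The 8 of 8 germ cell genes measured averaged 13.3% to 21.9% in the arsenic libraries and 17.1% to 25.7% in the control libraries. For 6 of 12 imprinted starts that carry maternal methylation in somatic cells, the averages were 8.39% to 11.5% in arsenic and 5.87% to 16.6% in control. Among them Plagl1 and Airn were at 0% in at least 1 library. Somatic markers were thinly covered, with 1 of 5 Sertoli cell genes, 2 of 5 Leydig cell genes and 2 of 5 peritubular or vascular genes measured. Inhbb, the Sertoli cell gene, stood at 0.0745% to 0.537% in arsenic and 1.05% to 13.4% in control. The Leydig cell genes averaged 14.01% ± 7.66 in arsenic and 14.9% ± 10.4 in control (SD, n = 5 each). Of these, Lhcgr was higher in arsenic and Insl3 lower. The peritubular or vascular genes, Cnn1 and Pdgfra, averaged 32.3% ± 4.23 in arsenic and 28.9% ± 3.62 in control (SD, n = 5 each). Both were higher in arsenic. The averages of the groups overlapped in these 2 lists. The part of cell makeup in the differences between the groups was not tested.

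The start regions of the members were rich in CpGs. RefSeq sequences (GRCm38.p6, the assembly behind mm10) from 250 bases before to 50 bases after a gene start were matched for 41 of the 55 members and gave 52 windows. The median member window held 18.5 CpGs, against 7 over all 32851 windows. All windows together belong to 27025 genes, more than the protein-coding genes of the assembly. This background therefore includes starts of other kinds of gene, whereas the members are all protein-coding. The letters CCGG, which read the same on both strands and hold a CpG in each match, were found in 84.6% of member windows and in 52.8% of all windows. At least 3 CpGs were measured in 31 of the member windows, of 28 genes. Their median level was 1.77%, and 28 of the 31 stood below 5%. The sequences of 6 windows are given because they cover the range of levels seen at these starts; they were chosen after their values were seen, and their levels are a description. Each is written 5′ to 3′ on the strand of the gene, with the CG letters of the measured CpGs in capitals.

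Nkx6-2 codes for a factor of oligodendrocyte and neural tube patterning and Pax1 for a factor of the vertebral column and thymus; their windows are shown as densely measured starts near 0%. The Nkx6-2 window is chr7:139582748-139583047, minus strand, and the Pax1 window, at a start inside the annotated gene, is chr2:147364744-147365043, plus strand.
Nkx6-2: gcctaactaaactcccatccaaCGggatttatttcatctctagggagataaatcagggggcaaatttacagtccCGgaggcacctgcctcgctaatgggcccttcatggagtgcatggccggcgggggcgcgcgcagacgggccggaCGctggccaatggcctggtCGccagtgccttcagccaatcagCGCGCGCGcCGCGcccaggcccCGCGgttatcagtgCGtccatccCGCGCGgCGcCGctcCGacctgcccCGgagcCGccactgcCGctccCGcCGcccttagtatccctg
Pax1: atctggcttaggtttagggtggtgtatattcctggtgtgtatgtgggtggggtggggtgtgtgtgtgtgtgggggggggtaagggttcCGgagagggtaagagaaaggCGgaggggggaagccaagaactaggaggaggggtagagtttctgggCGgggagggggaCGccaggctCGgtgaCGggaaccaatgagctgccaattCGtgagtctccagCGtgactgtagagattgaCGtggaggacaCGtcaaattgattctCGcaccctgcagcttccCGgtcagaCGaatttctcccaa

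Of the 32 CpGs in the Nkx6-2 window 24 were measured. Their level was 0.786% ± 0.454 (SD, n = 5) in arsenic and 1.74% ± 0.919 (SD, n = 5) in control. All 13 CpGs of the Pax1 window were measured, at 1.98% ± 1.14 (SD, n = 5) in arsenic and 1.44% ± 0.979 (SD, n = 5) in control.

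Six6 codes for a factor of eye, hypothalamus and pituitary development and Irx2 for an Iroquois factor of embryonic patterning. The Six6 window (chr12:72939632-72939931, plus strand) is shown for the difference of its group means, and the Irx2 window (chr13:72628570-72628869, plus strand), a start about 4 kb inside the annotated gene, because the outer end of the same gene is described further on.
Six6: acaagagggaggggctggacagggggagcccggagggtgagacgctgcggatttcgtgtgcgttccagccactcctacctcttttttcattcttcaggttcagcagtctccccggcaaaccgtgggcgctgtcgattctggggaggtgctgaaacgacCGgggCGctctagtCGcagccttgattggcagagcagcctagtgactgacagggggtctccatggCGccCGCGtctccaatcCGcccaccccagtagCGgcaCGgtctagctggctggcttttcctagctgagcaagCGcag
Irx2: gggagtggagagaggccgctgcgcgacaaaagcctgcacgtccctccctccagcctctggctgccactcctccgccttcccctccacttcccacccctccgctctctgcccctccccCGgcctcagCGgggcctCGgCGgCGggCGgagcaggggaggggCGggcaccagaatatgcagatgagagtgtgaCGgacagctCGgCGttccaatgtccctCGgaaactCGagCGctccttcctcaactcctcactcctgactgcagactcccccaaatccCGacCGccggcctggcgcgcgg

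In the Six6 window 10 of 20 CpGs were measured. The levels were 3.27%, 0%, 0.626%, 2.80% and 0.579% in arsenic libraries 1 to 5, and 4.92%, 2.40%, 9.03%, 17.2% and 14.9% in control libraries 1 to 5. The means were 1.46% ± 1.47 (SD, n = 5) in arsenic and 9.69% ± 6.32 (SD, n = 5) in control. Control libraries 4 and 5 were the highest, and control 2 lay within the arsenic range. The CpGs of the window lie close enough to share reads, so they are not separate measurements. In the Irx2 window 15 of 25 CpGs were measured, at 1.38% ± 2.70 (SD, n = 5) in arsenic and 0.663% ± 0.952 (SD, n = 5) in control. Arsenic library 4 stood at 6.21% and the other 4 arsenic libraries at 0% to 0.313%.

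Barhl1, a factor of inner ear hair cells and cerebellar neurons, had the most methylated measured start window of the set, and it is shown with a less methylated window of the same gene for contrast. Barhl1 upstream is chr2:28916619-28916918 and Barhl1 downstream is chr2:28912446-28912745, both on the minus strand and at starts inside the annotated gene.
Barhl1 upstream: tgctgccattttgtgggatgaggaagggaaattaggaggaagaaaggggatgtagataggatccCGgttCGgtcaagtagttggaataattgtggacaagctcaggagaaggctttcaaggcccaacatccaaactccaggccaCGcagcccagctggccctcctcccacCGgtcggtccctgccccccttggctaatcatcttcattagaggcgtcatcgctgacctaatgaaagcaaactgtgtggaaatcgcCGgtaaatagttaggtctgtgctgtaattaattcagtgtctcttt
Barhl1 downstream: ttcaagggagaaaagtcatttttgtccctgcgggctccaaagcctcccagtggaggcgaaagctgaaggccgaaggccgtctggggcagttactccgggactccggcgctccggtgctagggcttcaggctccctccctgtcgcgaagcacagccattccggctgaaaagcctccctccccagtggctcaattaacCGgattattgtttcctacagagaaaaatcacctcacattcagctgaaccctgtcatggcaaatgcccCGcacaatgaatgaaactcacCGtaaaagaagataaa

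The downstream window was at 51.9% ± 7.30 (SD, n = 5) in arsenic and 47.3% ± 5.53 (SD, n = 5) in control over 3 of its 14 CpGs. The upstream window was at 8.75% ± 2.81 (SD, n = 5) in arsenic and 12.8% ± 3.09 (SD, n = 5) in control over 5 of its 9 CpGs. Within 1 kb of the annotated start of Barhl1, 15 CpGs stood at 3.59% ± 0.552 in arsenic and 5.06% ± 2.39 in control.

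The ends of the members were almost free of methylation in testis. The median level over all 10 libraries was 2.67% in the 50 measured members, against 4.69% in all 14237 measured genes. Of the members, 39 stood below 5% and 46, or 92.0%, below 10%, a level that 62.4% of all genes were under. Vax1, a factor of the optic nerve and ventral forebrain, was lowest at 1.40%. Medians per library over the members were 2.09% to 2.71% in arsenic and 2.35% to 3.56% in control, with control 5 highest. Counted by CpG, 95.4% of the 2206 CpGs in member ends stood below 10% and 1.27% above 80%.

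The start and the far end of a gene were also read apart. Strand was given for 41 members, and the annotated start was measured in 34 of them. All 34 starts stood below 10%, with a median of 2.02% and a highest of 4.98%; over 10290 starts of all genes, 82.2% stood below 10%. The far end was measured in 17 members, with a median of 4.27% against 87.1% over 3908 far ends of all genes. Of the members' far ends 12, or 70.6%, stood below 10%, against 16.8% of all far ends.

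The highest ends were those of Lhx3, a factor of pituitary and motor neuron development, at 84.0% ± 4.15 (SD, n = 5) in arsenic and 86.2% ± 1.92 (SD, n = 5) in control. They rested on 3 CpGs at the far end, and the annotated start was not measured. A start window inside the gene, with 8 measured CpGs, stood at 2.88% ± 5.32 in arsenic and 0.696% ± 0.840 in control. Lhx6, a factor of cortical interneurons, stood at 42.6% ± 9.33 in arsenic and 45.4% ± 9.77 in control (SD, n = 5 each). Its start was at 1.39% ± 1.19 in arsenic and 1.14% ± 1.06 in control, and its far end at 84.6% ± 5.75 in arsenic and 80.7% ± 5.72 in control. Nkx6-2 had the same contrast between its ends: the start was at 1.12% ± 0.201 in arsenic and 1.82% ± 0.982 in control, and the far end, which overlaps the neighbouring gene Inpp5a, at 94.6% ± 2.48 in arsenic and 94.1% ± 2.09 in control. The next was Lhx2, a factor of eye and forebrain development, with 10.6% ± 2.21 in arsenic and 13.5% ± 6.23 in control. Its value rested on 5 far-end CpGs, and its annotated start was not measured. A start window inside Lhx2, with 8 measured CpGs, stood at 5.62% ± 5.65 in arsenic and 3.88% ± 6.04 in control. Irx6 followed, with 10.3% ± 4.66 in arsenic and 8.98% ± 3.78 in control (SD, n = 5 each). CpGs near an end can also belong to a neighbour: windows of Pax6 (with Elp4), Pax9 (Slc25a21), Pitx3 (Elovl3), Lhx3 (Qsox2) and Pitx1 (Catsper3) reach such a protein-coding gene.

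**Figure D1:**
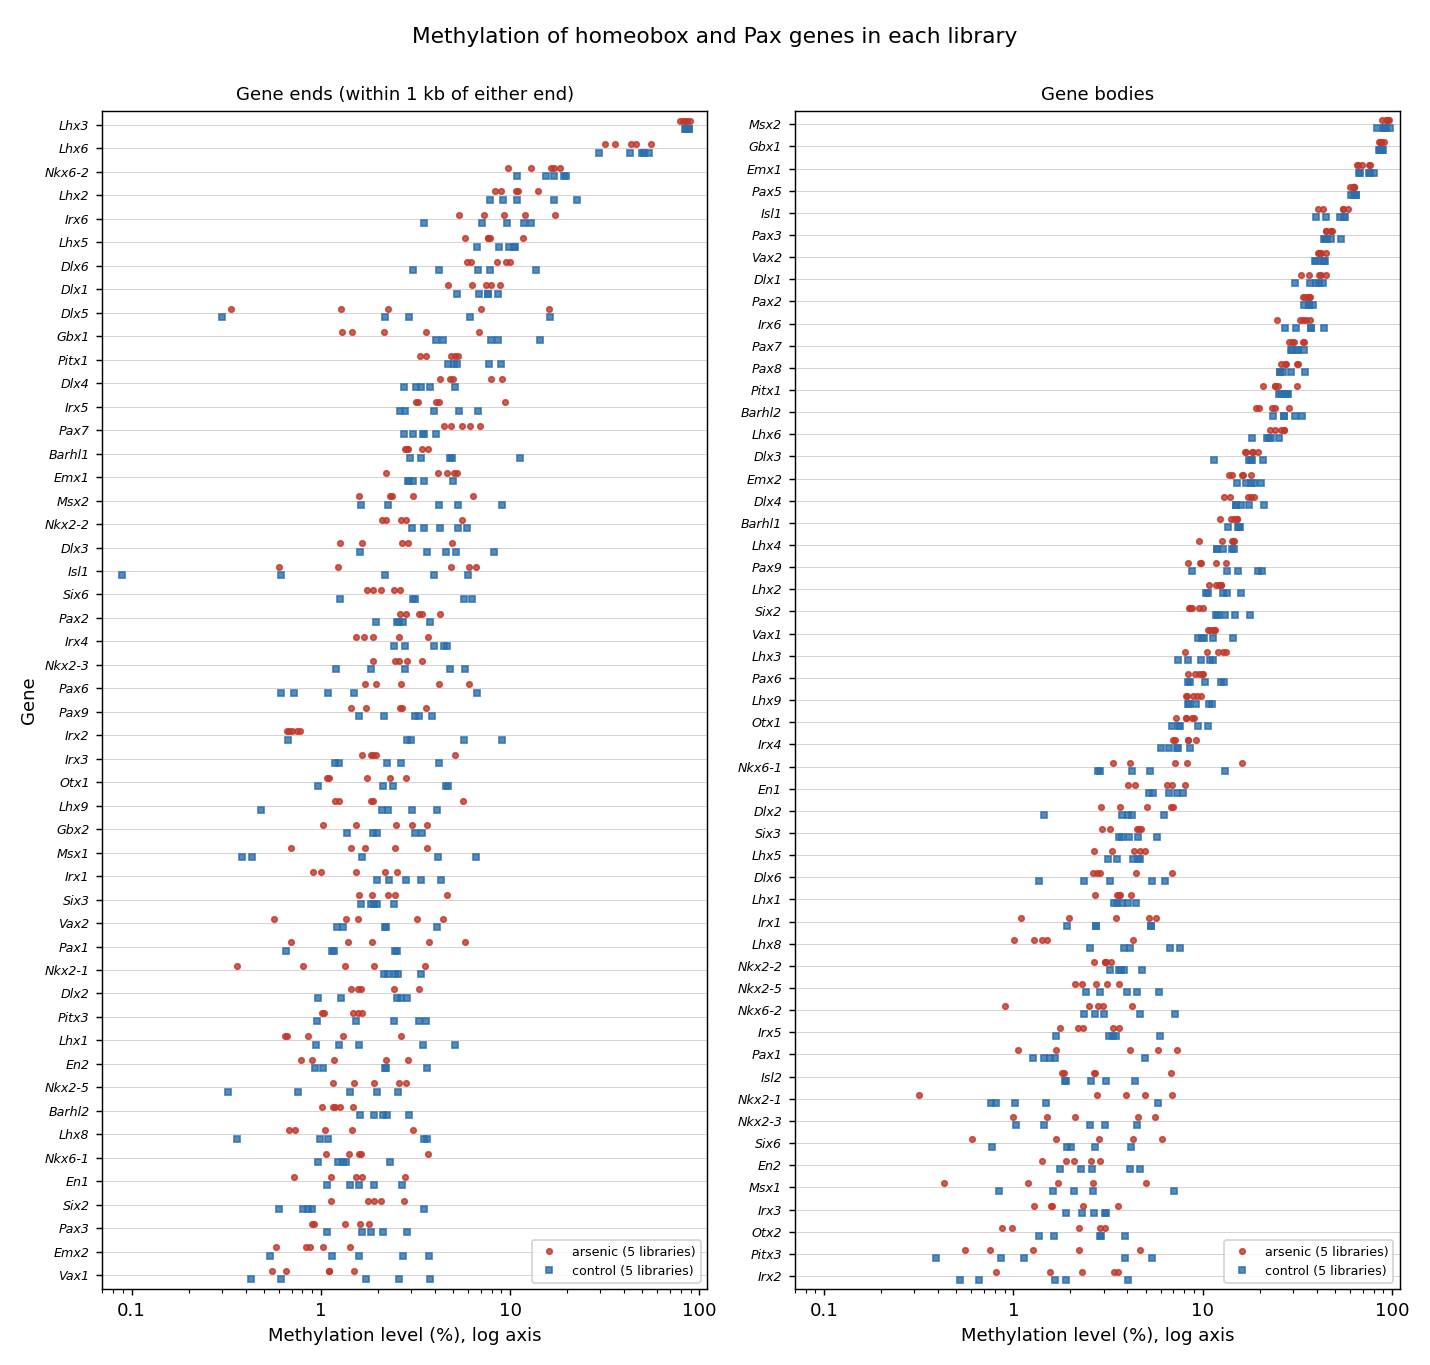
Methylation level in percent, on a log axis, of every measured member in each library, for gene ends (left) and gene bodies (right); each point is 1 library, red circles are arsenic and blue squares control, and genes are ordered by their mean over the 10 libraries. Most ends lie below 10%, whereas bodies spread from 2.04% in Irx2 to 92.5% in Msx2, and the libraries of both groups intermingle in nearly every gene.

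Low methylation also extended into the gene bodies, which are methylated in most genes. This and the other levels set against all genes are descriptions, with no test of the set. The median body level of the 53 measured members was 9.26%, against 82.3% in 14040 genes. Of the members 28, or 52.8%, stood below 10%, against 5.58% of all bodies, and 2 stood above 80%, against 53.5% of all. The bodies held 4115 measured CpGs, of which 76.0% stood below 10%, 13.0% between 10% and 80%, and 10.96% above 80%. Gene length moved with the level. Members of up to 10 kb had a median of 3.93% (28 genes), those of 10 to 30 kb 10.7% (18 genes) and those over 30 kb 31.3% (7 genes). All genes of these lengths had medians of 75.3%, 84.9% and 82.0%.

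Median body levels differed among the families, as a description of few genes each. The 6 Irx genes, patterning factors that lie in clusters, had a median of 3.32%, the 6 Nkx genes, which act in heart, lung, thyroid, gut and brain, 3.35%, and Six2, Six3 and Six6 together 4.17%. The 4 Otx and Pitx genes, factors of forebrain, pituitary and limb, had 5.29%, and the 10 LIM genes 9.86%. Msx1 and Msx2, at opposite ends of the range, had a median of 47.5%. Higher medians than those of the LIM genes were also found in the 5 measured Dlx genes, of jaw and forebrain development, with 16.6%, in the 9 measured Gbx, Emx, En, Vax and Barhl genes, with 16.8%, and in the 8 Pax genes, with 30.0%. Within the Pax genes, levels ran from 3.09% in Pax1 to 62.9% in Pax5. All 6 Nkx bodies stood below 10%, whereas 2 of the 8 Pax bodies did.

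The lowest bodies were those of Irx2 with 2.33% ± 1.18 in arsenic and 1.75% ± 1.41 in control, Pitx3, a factor of dopamine neurons and the lens, with 1.89% ± 1.67 in arsenic and 2.34% ± 2.20 in control, and Otx2, a factor of the forebrain and eye, with 2.0% ± 1.03 in arsenic and 2.53% ± 1.03 in control (SD, n = 5 each). Irx3 stood at 2.08% ± 0.923 in arsenic and 2.60% ± 0.504 in control, and Msx1, a factor of tooth and palate development, at 2.20% ± 1.77 in arsenic and 2.85% ± 2.44 in control (SD, n = 5 each). Msx2, the close relative of Msx1, had the highest body, with 93.7% ± 2.91 in arsenic and 91.2% ± 5.14 in control (SD, n = 5 each). That value rested on 5 CpGs and 55 to 175 reads per library. Its ends stood at 3.82% over all libraries.

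Gbx1, a factor of spinal cord neurons, had a body level of 87.7% ± 1.85 in arsenic and 87.8% ± 1.62 in control, and Emx1, a factor of the cerebral cortex, 70.8% ± 5.12 in arsenic and 73.7% ± 5.99 in control (SD, n = 5 each). Both had ends below 6%. Pax5, the regulator of B cell identity, stood at 62.4% ± 1.2 in arsenic and 63.3% ± 1.48 in control over 292 CpGs, and Isl1, a factor of motor neurons and heart progenitors, at 50.8% ± 8.04 in arsenic and 50.1% ± 7.33 in control (SD, n = 5 each). In Pax5, 93 of the 292 CpGs stood below 10% and 147 above 80%. The Isl1 body had 23 CpGs, 13 below 10% and 4 above 80%. The Emx1 body had 10 CpGs, 4 below 10% and 6 above 80%.

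Low levels reached further into the members than into protein-coding genes as a whole. Within 1 kb of the nearer gene end, inside the gene, the median was 2.51% in members and 3.35% in all genes. At 1 to 2 kb inside it was 3.63% in members and 38.2% in all genes, and at 2 to 5 kb 17.4% in members and 88.8% in all genes. It was 8.41% against 90.6% at 5 to 10 kb, and 47.2% against 88.3% beyond 10 kb, where 10 members contributed. Different genes enter each distance, so the points are not a path through the same genes.

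**Figure D2:**
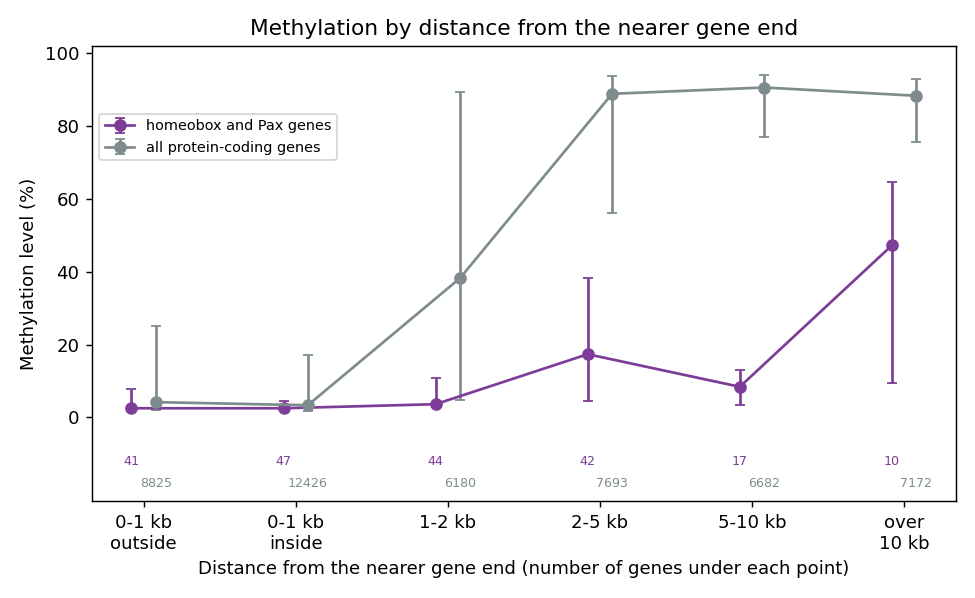
Median methylation level in percent of members (purple) and of all protein-coding genes (grey) by distance from the nearer gene end; bars run from the lower to the upper quartile of genes, and the numbers under the points count the genes. Members stay at 3.63% at 1 to 2 kb inside the gene, where all genes reach 38.2%.

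The number of covered CpGs in a tile moved with the level in the body too. This number is not the CpG density of the sequence, which was not counted for tiles. Member body tiles of 1 kb with 3 to 9 covered CpGs had a median of 52.4%, those with 10 to 19 CpGs 5.23% and those with 20 or more 2.73%. All body tiles of these classes had medians of 91.2%, 85.5% and 3.76%. Tiles with 20 or more CpGs made up 23.3% of member body tiles and 4.10% of all body tiles. In the middle class, 67.9% of member tiles and 19.7% of all tiles stood below 10%. In the class with 20 or more covered CpGs the medians lay close together, and 98.6% of member tiles and 67.2% of all tiles stood below 10%.

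Pax2, a factor of kidney, eye and ear development whose gene spans 91669 bases, shows how the states alternate within a member. The tile at its start was at 0.932% over all libraries, and the tile centred 1899 bases from the start was at 75.4%. The 9 measured tiles centred from 3899 to 13899 bases stood between 1.2% and 5.01%. Next to this stretch, the CpGs measured from 14451 to 14617 bases stood between 1.40% and 27.1%. Tiles centred from 15899 to 78899 bases stood between 42.5% and 93.0%, and the 3 tiles nearest the far end between 1.98% and 3.15%. In Pax5, which spans 185947 bases, 1 tile of 17 CpGs at 3.16% lay between tiles of 78.5% and 93.5%. Six3, a factor of forebrain and eye development, was low over nearly its whole measured length: 9 of its 12 tiles stood below 10%, and the tile beyond the far end was at 82.8%.

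**Figure D3:**
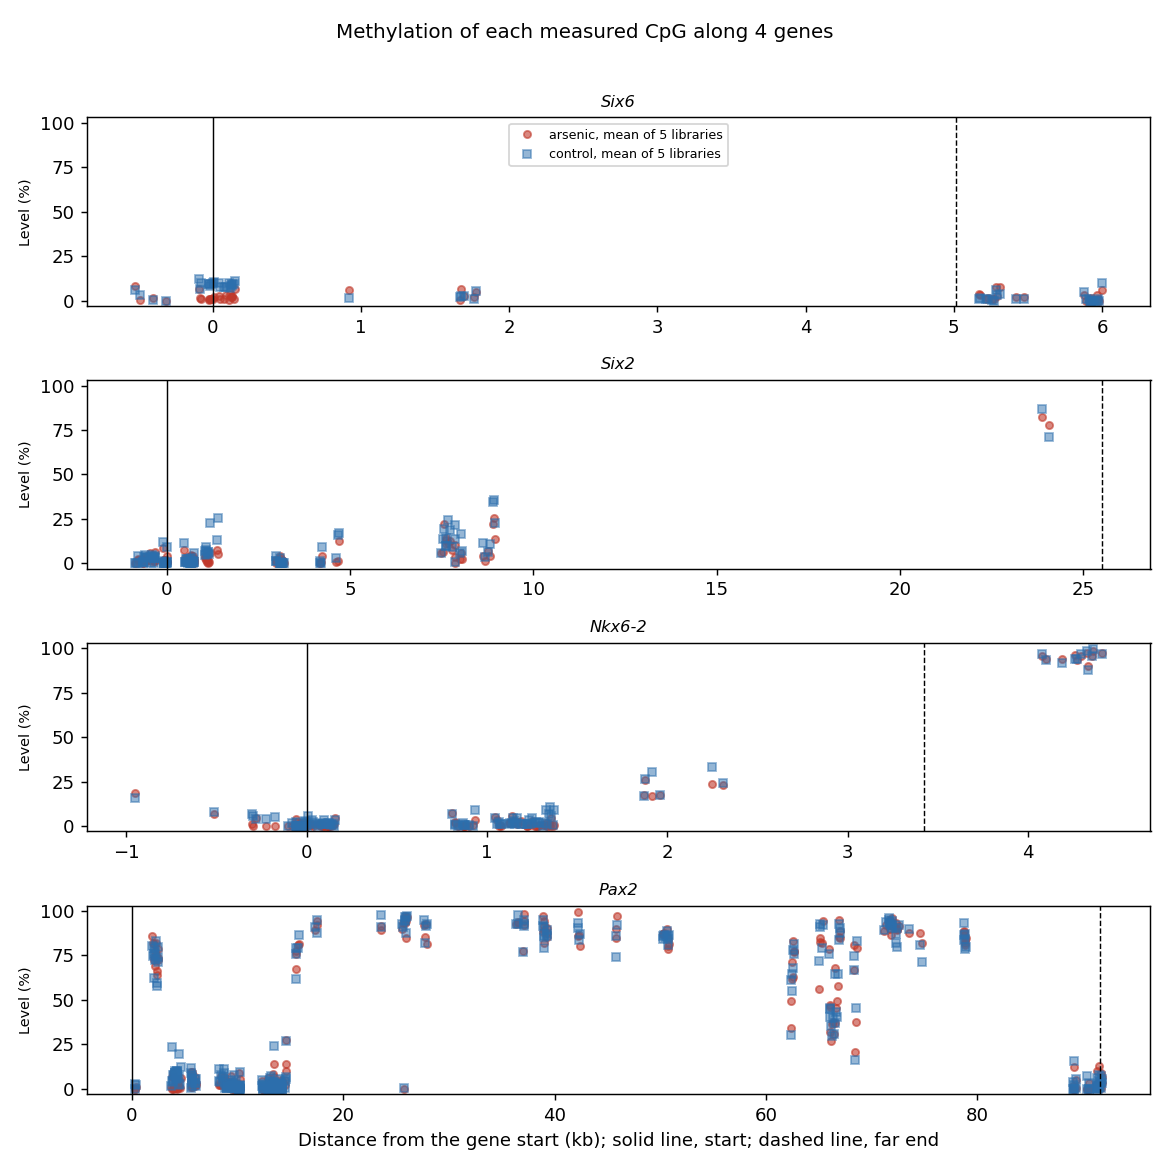
Methylation level in percent of each measured CpG in Six6, Six2, Nkx6-2 and Pax2, from the top, against its distance in kb from the gene start; red circles are the mean of the 5 arsenic libraries, blue squares that of the 5 control libraries, the solid line marks the start and the dashed line the far end. Control points lie above arsenic points around the Six6 start and in parts of the Six2 body, and Pax2 alternates between stretches near 0% and methylated stretches.

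The comparison of arsenic with control asked whether the levels of these genes differed between the groups in the F2 testis. A feature was called if its adjusted p was under 0.05 and the groups lay 10 or more percentage points apart. In this sense 0 of 50 member ends, 0 of 53 member bodies and 0 of 433 member tiles of 1 kb were called. The same rule called 0% of all ends, 0% of all bodies and 0% of all tiles. Here and below, all tiles include those between genes, whereas member tiles lie in or within 1 kb of a member. The quasi-binomial model gave lowest adjusted p-values among members of 0.644 for ends, 0.775 for bodies and 0.745 for tiles. Limma on log2 ratios called 0 members of each kind, and 1 end, 0 bodies and 1 tile of the whole table. Low levels leave little room for such a call in the lower direction: 4 member ends and 25 member bodies had a control level of at least 10%, the smallest level that could fall by 10 points.

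The intervals bound the size of the differences. The 95% interval of the difference lay within ±10 points in 49 of 50 ends and 49 of 53 bodies, and within ±5 points in 42 ends and 41 bodies. The median half-width was 1.76 points in ends and 2.23 points in bodies. The lowest and highest differences were -4.70 and 2.17 points in ends, -5.41 and 3.78 points in bodies, and -9.32 and 9.64 points in tiles. Intervals come from the spread between libraries, and the reads carry no molecular identifiers.

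**Figure D4:**
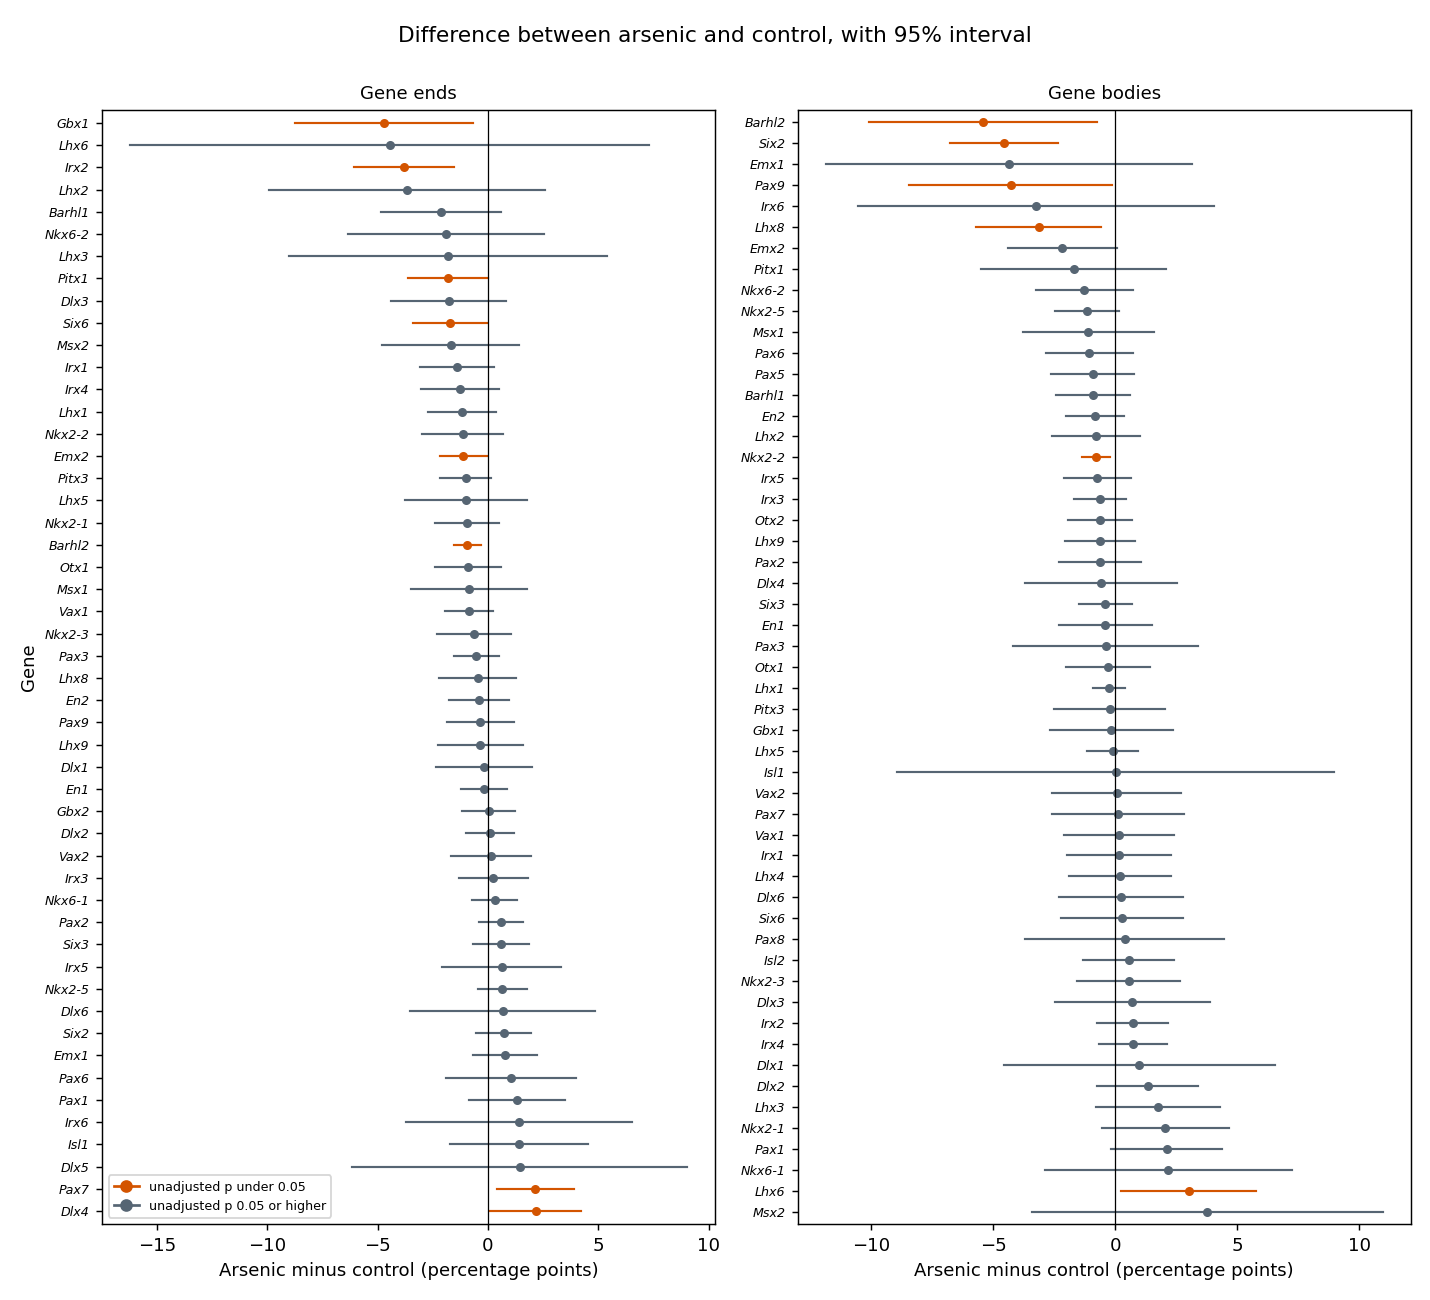
Difference in methylation level, arsenic minus control, in percentage points with its 95% interval for every measured member, ends on the left and bodies on the right, ordered by the difference; orange marks an unadjusted p under 0.05. In ends 6 of the 8 orange members lie on the lower side, and in bodies 5 of 6. The Pitx1 ends are orange although their interval, -3.60 to 0.00942 points, just includes 0.

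An unadjusted p under 0.05 was found in 8 of 50 member ends, or 16.0%, against 5.97% of all ends. Of these, 6 were lower in arsenic (4.35% of all ends) and 2 higher (1.62% of all ends). In bodies it was found in 6 of 53 members, or 11.3%, against 5.44% of all bodies, 5 lower (3.43% of all) and 1 higher (2.01% of all). In tiles it was found in 45 of 433, or 10.4%, against 5.8% of all tiles, 37 lower (3.34% of all) and 8 higher (2.47% of all); the 45 tiles lay in 34 members. Tiles below 10% had such a p more often in the whole table, in 10% of them, and 37 of 286 member tiles below 10%, or 12.9%, had one. Of these 30 were lower in arsenic, against 6.83% of all such tiles, and 7 higher, against 3.21%. Neighbouring tiles and the ends and body of 1 gene share the same libraries, so these are counts and not separate tests of the set.

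The counts depended on which libraries were included. Without control libraries 4 and 5, a p under 0.05 was found in 4 member ends (2 lower and 2 higher in arsenic), or 8.0%, against 5.72% of all ends in that setting. It was found in 4 bodies (1 lower and 3 higher), or 7.55%, against 5.30% of all bodies, and in 39 tiles (24 lower and 15 higher), or 9.01%, against 5.71% of all tiles. Leaving out control 5 alone gave 4 ends and 3 bodies, whereas leaving out control 4 alone gave 8 ends and 7 bodies. The ends counted 5 without arsenic 1 and 5 without arsenic 5. Control 4 or 5 had the highest level of all libraries in 18 of 50 member ends, against 34.7% of all ends, and in 18 of 53 member bodies, against 30.8% of all bodies. Whatever the p, the level was lower in arsenic in 31 of 50 ends (58.1% of all ends), in 31 of 53 bodies (53.9% of all bodies) and in 245 of 433 tiles (51.9% of all tiles).

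Irx2 had the smallest p of the ends and was lower in arsenic without passing the test. Its 19 CpGs lie in 1 tile at the outer end of the gene (chr13:72624001-72625000), apart from the start window printed above. The levels were 0.666%, 0.703%, 0.676%, 0.751% and 0.781% in arsenic libraries 1 to 5, and 5.71%, 3.0%, 0.675%, 2.87% and 9.09% in control libraries 1 to 5. The arsenic libraries were nearly identical, 4 of the 5 control libraries were above all of them, and control 3 lay among them. The means were 0.715% ± 0.0494 in arsenic and 4.27% ± 3.23 in control (SD, n = 5 each). The difference was -3.79 points (95% interval -6.05 to -1.53), with an adjusted p of 0.644 in the quasi-binomial model over all ends.

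Barhl2, a factor of retinal and spinal cord neurons, was the only member whose ends were lower in arsenic with no overlap of the groups, which 0.646% of all ends were. Over 82 CpGs its levels were 1.19%, 1.26%, 1.48%, 1.02% and 1.16% in arsenic libraries 1 to 5 and 2.25%, 2.94%, 1.61%, 1.90% and 2.13% in control libraries 1 to 5. Every control library was above every arsenic library, by a difference of -0.927 points (95% interval -1.52 to -0.333; adjusted p = 0.729). Gbx1 stood at 3.07% ± 2.28 in arsenic and 7.87% ± 4.15 in control (SD, n = 5 each), with control 5 highest at 14.4% and arsenic 5 at 6.81%. Emx2, a factor of cortex and urogenital development, stood at 0.948% ± 0.311 in arsenic and 1.94% ± 1.27 in control, and Pitx1, a factor of the hindlimb and pituitary, at 4.44% ± 0.909 in arsenic and 6.34% ± 1.91 in control (SD, n = 5 each). The groups overlapped in these genes.

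The Six6 ends joined 2 groups of CpGs whose differences had opposite signs. The ends as a whole stood at 2.16% ± 0.365 in arsenic and 3.89% ± 2.08 in control (SD, n = 5 each), a difference of -1.70 points (95% interval -3.38 to -0.0274; adjusted p = 0.828). At the start, over 25 CpGs, the level was 2.04% ± 0.829 in arsenic and 7.92% ± 5.72 in control. At the far end, over 23 CpGs, it was 2.23% ± 0.624 in arsenic and 1.39% ± 0.735 in control (SD, n = 5 each). With only cytosines of at least 20 reads in every library the difference of the ends turned to 0.260 points, and the cause was not tested.

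Among the ends higher in arsenic, Pax7, a factor of muscle stem cells and neural crest, had groups that did not overlap, as did 0.281% of all ends in that direction. Its 19 CpGs stood at 6.95%, 4.87%, 6.11%, 5.6% and 4.49% in arsenic libraries 1 to 5 and at 4.05%, 3.50%, 3.48%, 2.75% and 3.06% in control libraries 1 to 5. The difference was 2.15 points (95% interval 0.404 to 3.90; adjusted p = 0.828). Dlx4, a factor expressed in placenta and branchial arches, stood at 6.20% ± 2.12 in arsenic and 3.64% ± 0.894 in control (SD, n = 5 each), with arsenic libraries 1 and 5 highest. Pax1 (2.70% ± 2.06 in arsenic and 1.59% ± 0.850 in control) and Nkx2-5, a factor of the heart (2.0% ± 0.706 in arsenic and 1.41% ± 0.899 in control), had overlapping groups. For Nkx2-5 the difference of 0.652 points was -0.196 at a coverage of at least 20 reads.

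In the bodies, Six2, the factor that maintains nephron progenitors in the kidney, had the smallest p. The levels were 9.52%, 8.82%, 8.44%, 10.1% and 8.56% in arsenic libraries 1 to 5, and 12.1%, 11.7%, 13.1%, 17.9% and 14.8% in control libraries 1 to 5. All 5 arsenic libraries were below all 5 control libraries, which held for 0.499% of all bodies, and control 4 was the highest. The means were 9.08% ± 0.697 in arsenic and 13.9% ± 2.51 in control (SD, n = 5 each), a difference of -4.55 points (95% interval -6.78 to -2.33) with an adjusted p of 0.775. Within the body, the tile chr17:85679001-85680000, with 7 CpGs, stood at 11.1%, 11.2%, 10.8%, 15.2% and 12.9% in arsenic libraries 1 to 5 and at 19.9%, 19.8%, 21.7%, 24.1% and 15.2% in control libraries 1 to 5. Control 5 was the lowest control library there and only just above arsenic 4. The ends of the same gene stood at 1.63% over all libraries.

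Other bodies lower in arsenic had overlapping groups. Lhx8, a factor of forebrain cholinergic neurons that also acts in oocytes, stood at 4.29%, 1.29%, 1.42%, 1.0% and 1.5% in arsenic libraries 1 to 5 and at 3.86%, 4.16%, 2.55%, 7.57% and 6.69% in control libraries 1 to 5. Arsenic 1 lay within the control range and the other 4 arsenic libraries below it. Barhl2 stood at 22.9% ± 3.80 in arsenic and 28.4% ± 3.81 in control, a difference of -5.41 points that became 0.798 when every cytosine was weighted equally. Pax9, a factor of teeth and the thymus, stood at 10.6% ± 1.92 in arsenic and 15.6% ± 4.84 in control, with controls 4 and 5 highest at 19.6% and 20.7%. Nkx2-2, a factor of pancreatic islets and the ventral neural tube, stood at 3.03% ± 0.219 in arsenic and 3.83% ± 0.583 in control over 186 CpGs, and Emx2 at 15.7% ± 1.71 in arsenic and 17.8% ± 1.85 in control (SD, n = 5 each).

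Of the bodies higher in arsenic, Lhx6 had the smallest p, with 25.3% ± 1.90 in arsenic and 22.2% ± 2.65 in control (SD, n = 5 each). The difference was 3.01 points (95% interval 0.231 to 5.78; adjusted p = 0.904), and the groups overlapped. No member body was higher in arsenic without overlap, against 0.292% of all bodies. Pax1 stood at 4.0% ± 2.67 in arsenic and 2.18% ± 1.55 in control, and Nkx2-1, a factor of thyroid, lung and forebrain, at 3.79% ± 2.46 in arsenic and 1.98% ± 2.16 in control (SD, n = 5 each). In both genes 4 control libraries were low and control 4 was high. Lhx3 stood at 11.4% ± 2.12 in arsenic and 9.58% ± 1.68 in control (SD, n = 5 each). Its difference of 1.76 points was -0.611 at a coverage of at least 20 reads and -0.323 with cytosines weighted equally.

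Tiles showed where within a member the levels of the groups lay furthest apart, and none passed the test. In Pax2, the tile chr19:44750001-44751000 (20 CpGs, at the edge of the low stretch described above) stood at 2.89%, 2.21%, 3.75%, 1.96% and 1.95% in arsenic libraries 1 to 5 and at 10.4%, 6.40%, 5.89%, 3.16% and 11.3% in control libraries 1 to 5. Control 4 lay within the arsenic range and the other 4 control libraries above it. In Pax6, the regulator of eye development, the tile chr2:105675001-105676000 (24 CpGs) stood at 0.303%, 0.623%, 0.489%, 0.271% and 1.32% in arsenic libraries 1 to 5 and at 6.65%, 1.18%, 1.23%, 1.05% and 5.85% in control libraries 1 to 5. The group means of 0.60% ± 0.425 in arsenic and 3.19% ± 2.81 in control (SD, n = 5 each) differed mainly by control libraries 1 and 5. The Irx2 tile holds the same CpGs as its ends. Groups did not overlap in 3 member tiles lower in arsenic (0.483% of all tiles): that of Six2, a Pax2 tile starting at 44811001 with 78.5% ± 4.89 in arsenic and 85.5% ± 3.20 in control, and an Irx1 tile starting at 71961001 with 16.7% ± 3.89 in arsenic and 23.7% ± 3.75 in control (SD, n = 5 each). The Pax2 and Irx1 tiles are named after their values were seen. Groups also did not overlap in 3 tiles higher in arsenic (0.349% of all tiles), in En1, Vax2 and Irx6.

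En1, a factor of the midbrain-hindbrain border, had a tile of 18 CpGs outside the gene (chr1:120601001-120602000) at 5.49%, 6.15%, 6.85%, 4.81% and 4.75% in arsenic libraries 1 to 5 and at 3.51%, 3.35%, 3.46%, 3.36% and 4.22% in control libraries 1 to 5. All arsenic libraries were above all control libraries, by 2.09 points (95% interval 0.916 to 3.26; adjusted p = 0.808). In Vax2, a factor of the ventral retina, the tile chr6:83722001-83723000 (4 CpGs, 134 to 215 reads per library) stood at 87.3%, 91.6%, 85.5%, 92.5% and 82.9% in arsenic libraries 1 to 5 and at 79.6%, 81.9%, 78.8%, 72.5% and 78.4% in control libraries 1 to 5. Its difference of 9.64 points (95% interval 3.06 to 16.2) was the largest of the 433 member tiles in absolute size, and control 2 and arsenic 5 were 1 point apart. In Irx6, the tile chr8:92678001-92679000 (5 CpGs) stood at 3.80% ± 1.37 in arsenic and 1.14% ± 0.707 in control (SD, n = 5 each), where control 2 had 0 methylated of 269 reads, which allows a level of up to 1.12%. The Lhx6 tile chr2:36104001-36105000 (27 CpGs, near the start) stood at 3.70% ± 1.68 in arsenic and 1.16% ± 0.974 in control (SD, n = 5 each), and the groups overlapped.

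**Figure D5:**
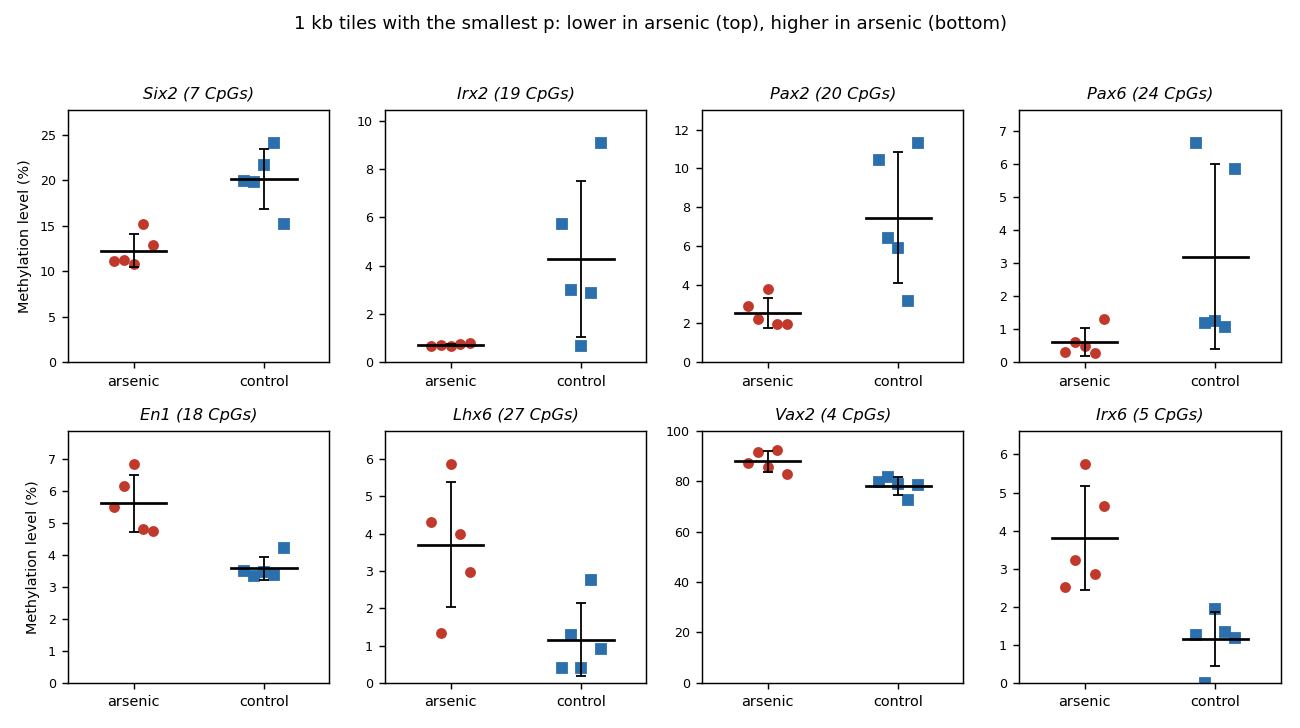
Methylation level in percent of the 8 named member tiles, 4 lower in arsenic (top) and 4 higher in arsenic (bottom); each point is 1 library, lines are the group means and bars the SD over 5 libraries, and each panel has its own axis from 0. Points of the groups overlap in the Irx2, Pax2, Pax6 and Lhx6 tiles and not in the Six2, En1, Vax2 and Irx6 tiles, and differences are of few percentage points except in Six2 and Vax2.

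Other homeobox genes and the partners of these factors were read in the same way. In 62 of 71 other homeobox genes with measured ends the median was 3.24%, and in 59 with measured bodies 19.5%. Of these ends 90.3% stood below 10%, against 62.4% of all ends, and of these bodies 37.3%, against 5.58% of all bodies. Low ends and bodies were thus not particular to the members. The quasi-binomial model called 0 and limma called 0. With the quasi-binomial model an unadjusted p under 0.05 was found in 4 of 62 ends (2 lower and 2 higher in arsenic), against 5.97% of all ends. It was found in 5 of 59 bodies (3 lower and 2 higher), against 5.44% of all bodies. With limma it was found in 5 ends and 4 bodies. Among the ends with the smallest p were those of Onecut2, a factor of liver and retina development, with 13.2% ± 3.51 in arsenic and 6.62% ± 1.99 in control, and Prrx1, a factor of limb mesenchyme, with 2.76% ± 1.16 in arsenic and 5.97% ± 2.56 in control (SD, n = 5 each). Among the bodies with the smallest p were those of Onecut3 (25.2% ± 1.98 in arsenic and 29.5% ± 2.49 in control) and Alx1, a craniofacial factor (3.27% ± 1.12 in arsenic and 5.86% ± 2.07 in control).

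The ends of the cofactors of these proteins were split. Of 24 listed, 19 had measured ends, with a median of 2.85%; 11 of them, or 57.9%, stood below 10% (62.4% of all genes), and 4 stood above 50%. All 24 had measured bodies, with a median of 63.3%. The quasi-binomial model called 0 and limma called 0. With the quasi-binomial model an unadjusted p under 0.05 was found in 0 of 19 ends, against 5.97% of all ends. It was found in 2 of 24 bodies, both higher in arsenic, against 5.44% of all bodies. With limma it was found in 0 ends and 0 bodies. The bodies with the smallest p were those of Eya4, a phosphatase partner of homeodomain proteins such as Six2, with 73.1% ± 2.20 in arsenic and 70.02% ± 1.94 in control, Ldb1, a partner of LIM homeodomain proteins, with 57.6% ± 3.43 in arsenic and 52.1% ± 5.53 in control, and Lmo2, a LIM-only protein of blood development, with 10.2% ± 2.62 in arsenic and 13.7% ± 4.37 in control (SD, n = 5 each). The ends with the smallest p were those of Eya2, with 85.5% ± 3.55 in arsenic and 80.5% ± 3.53 in control, Tle3, a corepressor, with 0.850% ± 0.423 in arsenic and 1.63% ± 1.10 in control, and Lmo2, with 81.3% ± 1.09 in arsenic and 77.0% ± 6.35 in control (SD, n = 5 each).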

How the data were processed

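The labels give testis DNA of F2 mice in 5 arsenic and 5 control libraries, extracted with phenol and chloroform, column-purified and prepared with an NEBNext kit. The submitters' processing notes name Trim Galore 0.6.5, Bismark 0.22.3, methylKit 1.22.0 and the build mm10; how they were set is not given in the sources used here. The deposited table holds, per the file headers, unnormalised counts per cytosine and library: all reads, reads called methylated and reads called unmethylated. The table was found to hold cytosines with at least 10 reads in every library, so rarely sampled CpGs are absent from every level.

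Counts were summed over the ends and the body of each of 21887 protein-coding genes on GRCm38.p6, with symbols matched for all 55 members. They were also summed over 1000 bp tiles along the chromosomes, inside and outside genes. Member tiles are those that overlap a member gene or the 1 kb beyond its ends. Strand came from RefSeq start windows and was given for 41. Features with at least 3 distinct CpGs were fitted with a quasi-binomial logistic regression on the methylated share of reads. Dispersions were moderated over features with limma 3.58.1 and held at 1 or more. Two-sided p-values came from an F statistic for group and were Benjamini-Hochberg adjusted over the whole of each kind (14237 ends, 14040 bodies, 165974 tiles). A call needed an adjusted p under 0.05 and 10 percentage points. Differences are read-weighted, so they can depart slightly from the means over libraries. Confidence intervals are at 95%. They come from a standard error of the difference and not from the F statistic, so they can disagree with a p-value near 0.05. An upper limit for 0 methylated reads is 3 of the total, and this limit covers counting error only. The model was also run on simulated data with changes of 10 percentage points or more. Every difference seen in members was smaller, so that run does not show how such differences are detected. Libraries were grouped by their titles. Python 3.11.15, numpy 2.4.6, pandas 2.3.3, matplotlib 3.10.9 and R 4.3.3 were used.

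Members, lists and tests were chosen with earlier results of these data known. The named ends and bodies are the 6 lower and 4 higher in arsenic with the smallest p, the named tiles the 4 of each direction, the named levels the 5 highest ends and the 5 highest and 5 lowest bodies, and 3 ends and 3 bodies of each other list. Of the genes so named, 2 are not reported here. Other settings were limma on log2 ratios with 0.5 added to each count, coverage of at least 20, removal of cytosines above the 99.9th percentile of coverage, a replicate block, omission of libraries, equal weights of cytosines, at least 10 CpGs, no size minimum, and ends of 500 bp. A genome sequence, exons and transcripts were not used here.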

Additional observations from a re-analysis of the deposited data

Results flagged for a closer look

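Among 56 groups of 5 libraries examined for the named ends, bodies and tiles, 4 held 1 library far from the other 4 by Dixon's criterion, which chance alone marks in about 1 in 20 groups. In the Lhx8 body, arsenic 1 stood at 4.29%, above the other arsenic libraries at 1.0% to 1.5%. In the Pax1 body, control 4 stood at 4.94%, above the other control libraries at 1.27% to 1.66%. In the Nkx2-1 body, control 4 stood at 5.82%, above the other control libraries at 0.766% to 1.48%. In the En1 tile, control 5 stood at 4.22%, above the other control libraries at 3.35% to 3.51%, and below all arsenic libraries.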

How the results depend on the processing

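The number of called members was 0 for ends, bodies and tiles in the main setting and in every other setting run, including each library left out (0 to 0). Of the named differences recomputed, 486 kept their sign and side of the threshold and 5 reversed. Restricted to cytosines with 20 or more reads, the Six6 ends differed by 0.260 points, the Nkx2-5 ends by -0.196 and the Lhx3 body by -0.611, and with cytosines weighted equally the Barhl2 body differed by 0.798 and the Lhx3 body by -0.323; the cause was not tested. The median level of member ends was 2.21% at a coverage of at least 20 and 2.24% with ends of 500 bp, and that of bodies 7.96% and 7.95%. The count of members with an unadjusted p under 0.05 moved by over 1.5 times in several settings. With 20 or more reads it was 4 ends (8.89%, against 6.25% of all ends), 3 bodies (6.0%, against 5.07% of all) and 30 tiles (9.17%, against 5.82% of all). With cytosines weighted equally it was 4 ends (8.0%, against 4.41%), 3 bodies (5.66%, against 5.10%) and 18 tiles (4.16%, against 5.06%), so the share of member tiles was below that of all tiles. With limma it was 7 ends (14.0%, against 5.07%), 4 bodies (7.55%, against 4.93%) and 34 tiles (7.85%, against 5.14%), and with ends of 500 bp 3 bodies (5.66%, against 5.54%). With at least 10 distinct CpGs, which tests 244 member tiles, it was 20 tiles (8.20%, against 6.41%). Leaving out 1 library gave 4 to 9 ends (8.0% to 18.0%, against 5.40% to 6.53% of all ends). It gave 3 to 8 bodies (5.66% to 15.1%, against 5.02% to 6.15%) and 39 to 50 tiles (9.01% to 11.5%, against 5.51% to 5.91%).

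Both groups carry replicate numbers 1 to 5 in the labels, and a fit with the replicate block called 0 ends, 0 bodies and 0 tiles of the members, with an unadjusted p under 0.05 in 7 ends (14.0%, against 8.29% of all ends), 5 bodies (9.43%, against 6.03%) and 52 tiles (12.01%, against 6.69%). Whether equal numbers mark a pair is not stated there. Deviations of same-numbered libraries correlated at -0.0150 to 0.0314 over ends, and 2 of 5 libraries correlated best with their own number. Over tiles the correlations were -0.0126 to 0.0167, and 1 of 5 libraries correlated best with its own number. A weak pairing may not show in such correlations, so the pairing of the libraries stays unknown.

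Among member ends and bodies, depth was lowest in the Msx2 body, with 55 reads in its thinnest library; member tiles went down to 30 reads. A single read then moves the level by more than 1 point. Fragments outside the sampled CpGs, among them the ends of Pax5, Lhx4 and Otx2, gave no value.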

Other observations

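The ends of Dlx5, a factor of limb, jaw and forebrain development, spread widely within both groups. They stood at 16.1% in arsenic 2 and 16.2% in control 5, and at 0.30% to 7.03% in the other 8 libraries. In the Isl2 body, arsenic 3 stood at 6.84%, above the other 4 arsenic libraries.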
